A study of Mus musculus with 8 samples.

Results

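The mRNAs described here encode the initiation and elongation factors of cytosolic translation, with the enzymes and binding proteins that share their gene names. They are the protein-coding mouse genes whose symbol begins with Eif1 to Eif6 or with Eef1 or Eef2. Of 79 symbols with such a start, 68 were protein-coding and 67 of these were among the 38924 genes of the deposited tables. The rule reads gene names and no measured value, and the gene family was picked with earlier results of these data known.

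The series measured ribosome-associated mRNA in 8 whole spinal cords of mice, to learn which mRNAs motor neurons hold on ribosomes after a nerve crush. All mice carried an Rpl22 allele that adds an HA tag to a ribosomal protein once Cre has acted (genotype entry Rpl22 +/-), on a B6.CgxB6.129 background and with wild-type Gars alleles (Gars+/+). An antibody against HA then pulled down the tagged ribosomes with their mRNA. Chat-Cre switches the tag on in cholinergic cells, which in the cord include motor neurons and also other cholinergic neurons. The Cre crushed group (numbers 35 and 52, aged 18 and 9 weeks) had a crush of the sciatic nerve on 1 side. The no-Cre crushed group (51 and 58, both 9 weeks) had the same surgery without Cre. Mice with Cre but no crush (10 and 3, the Cre uncrushed group) and mice with neither (4 and 6, the no-Cre uncrushed group) were 8 weeks old. Whole cords were taken, so each crushed cord also held neurons of the uncrushed side. The time after crush was not given in the sources used here. For 2 libraries the title and the genotype entry disagree: Cre uncrushed 3 is entered as Chat +/+ and no-Cre uncrushed 4 as Chat +/-. The titles were followed.

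Libraries held 4826979 to 11522721 expected counts. Mitochondrial ribosomal RNA took 1.61 to 5.53% of counts in Cre libraries, against 11.47 to 48.21% in no-Cre libraries. Levels are given as CPM, counts scaled to a common library total, with totals adjusted by the trimmed mean of M values (TMM). The 10 cholinergic and motor neuron markers found, Chat among them, summed to 31290 to 49574 CPM in Cre libraries, against 2824 to 9001 CPM in no-Cre libraries, and 9 of 10 passed the test as higher with Cre in each crush state. Much of this sum was neurofilament mRNA. In Cre crushed 35, Nefl, Nefm and Nefh had 13986, 14043 and 3185 CPM, against 78.2 CPM for Chat. Of 10 markers of neurons in general, 9 were also higher with Cre in each state, with sums of 15615 to 20535 CPM, against 3399 to 6333 CPM without. Chat had 97.7 and 126 CPM in Cre uncrushed 10 and 3, against 4.29 and 4.81 CPM in no-Cre uncrushed 4 and 6, so its level followed the titles. The 12 oligodendrocyte markers ran the other way, with sums of 749 to 1933 CPM in Cre libraries, against 4957 to 8118 CPM in no-Cre libraries, and all 12 were lower with Cre in both states. The 10 astrocyte markers summed to 434 to 737 CPM in Cre libraries, against 1959 to 3458 CPM in no-Cre libraries. No oligodendrocyte or astrocyte marker was at 0 in both libraries of any group. The no-Cre precipitates are thus not empty. Lower with Cre means a lower scaled level than in these precipitates, and the source of such an mRNA was not tested.

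Initiation factors bring the initiator tRNA and the small ribosomal subunit to the cap of an mRNA, find the start codon and join the large subunit. eIF2 carries the initiator tRNA and is recharged with GTP by eIF2B, and its phosphorylation by stress kinases slows initiation in most mRNAs. eIF4E binds the cap, eIF4G is the scaffold, eIF4A unwinds, and eIF3 bridges to the ribosome. In elongation eEF1A delivers aminoacyl-tRNA and eEF2 moves the ribosome along. Several factors exist as paralogs made by separate genes, and eEF1A is a known case in neurons: Eef1a2 is the form of adult neurons and muscle, whereas Eef1a1 is the widespread form.

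The comparison that the paralogs turn on is that of Eef1a2 (ENSMUSG00000016349) with Eef1a1 (ENSMUSG00000037742), so the stretches around their annotated starts are shown first. They run from 70 bases before the start to 30 bases from it on, and are RefSeq sequence of build GRCm38.p6. Eef1a2 lies at chr2:181156986-181157085 and Eef1a1 at chr9:78481695-78481794, both on the minus strand. Of the 5 motifs searched below, none was found in either stretch, so no letters are in capitals.
Eef1a2: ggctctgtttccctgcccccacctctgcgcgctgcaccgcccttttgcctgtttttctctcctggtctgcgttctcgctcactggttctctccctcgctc
Eef1a1: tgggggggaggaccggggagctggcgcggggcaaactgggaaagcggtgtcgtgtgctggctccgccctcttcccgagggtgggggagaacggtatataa

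Taken over all members, the factors were more abundant in the Cre precipitates. Their summed level was 5986 and 5546 CPM in Cre crushed libraries, against 2992 and 3562 CPM in no-Cre crushed libraries. In uncrushed mice the sums were 5860 and 6096 CPM with Cre, against 4394 and 3740 CPM without. The sums did not overlap between Cre and no-Cre in either state. In these bulk precipitates, fewer cells of a type and less mRNA per cell cannot be told apart. As a share of all counts the members made up 0.548 to 0.821% in Cre libraries, against 0.23 to 0.457% in no-Cre libraries. With mitochondrial ribosomal RNA left out of the total, the shares were 0.58 to 0.834%, against 0.4 to 0.55%.

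Gene by gene, 64 of the 67 members passed the filter on low counts and were tested. Calls were made at 0.05 on p-values adjusted over all genes tested by the method of Benjamini and Hochberg. In crushed mice 42 members were higher and 2 lower with Cre, beside a background of 21.6% of the 15208 genes tested for higher and 21.3% for lower. The median log2 fold change, Cre over no-Cre, was 1.06 over the tested members, beside -0.08 over all genes. In uncrushed mice 35 members were higher and 5 lower, beside 20.6% and 21.9% of all genes, and the medians were 0.82 and -0.03. With scaling by library size alone the uncrushed median of all genes was 0.65 in place of -0.03. Under that scaling 48 members and 4753 genes were called higher in uncrushed mice, and 0 members and 1463 genes lower, beside 3137 and 3331 genes with TMM. Fewer members were called in uncrushed mice without both libraries with contradictory genotype entries, and without Cre uncrushed 3 alone. In crushed mice fewer were called without Cre crushed 35. Over all genes the numbers called higher and lower fell in each of these settings as well. Each of them leaves a compared group with 1 library.

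In both states 32 members were called higher and 1, Eif4e3, lower. No member was called in opposite directions, and 13 were called in neither state. Calls were not crossed in this way over all genes, so these counts have no background beside them. The test of whether the Cre effect differed between crushed and uncrushed mice, which is also the test of whether the crush effect differed with Cre, called 0 members. A call in one state and not in the other therefore does not show a difference between them.

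**Figure D1:**
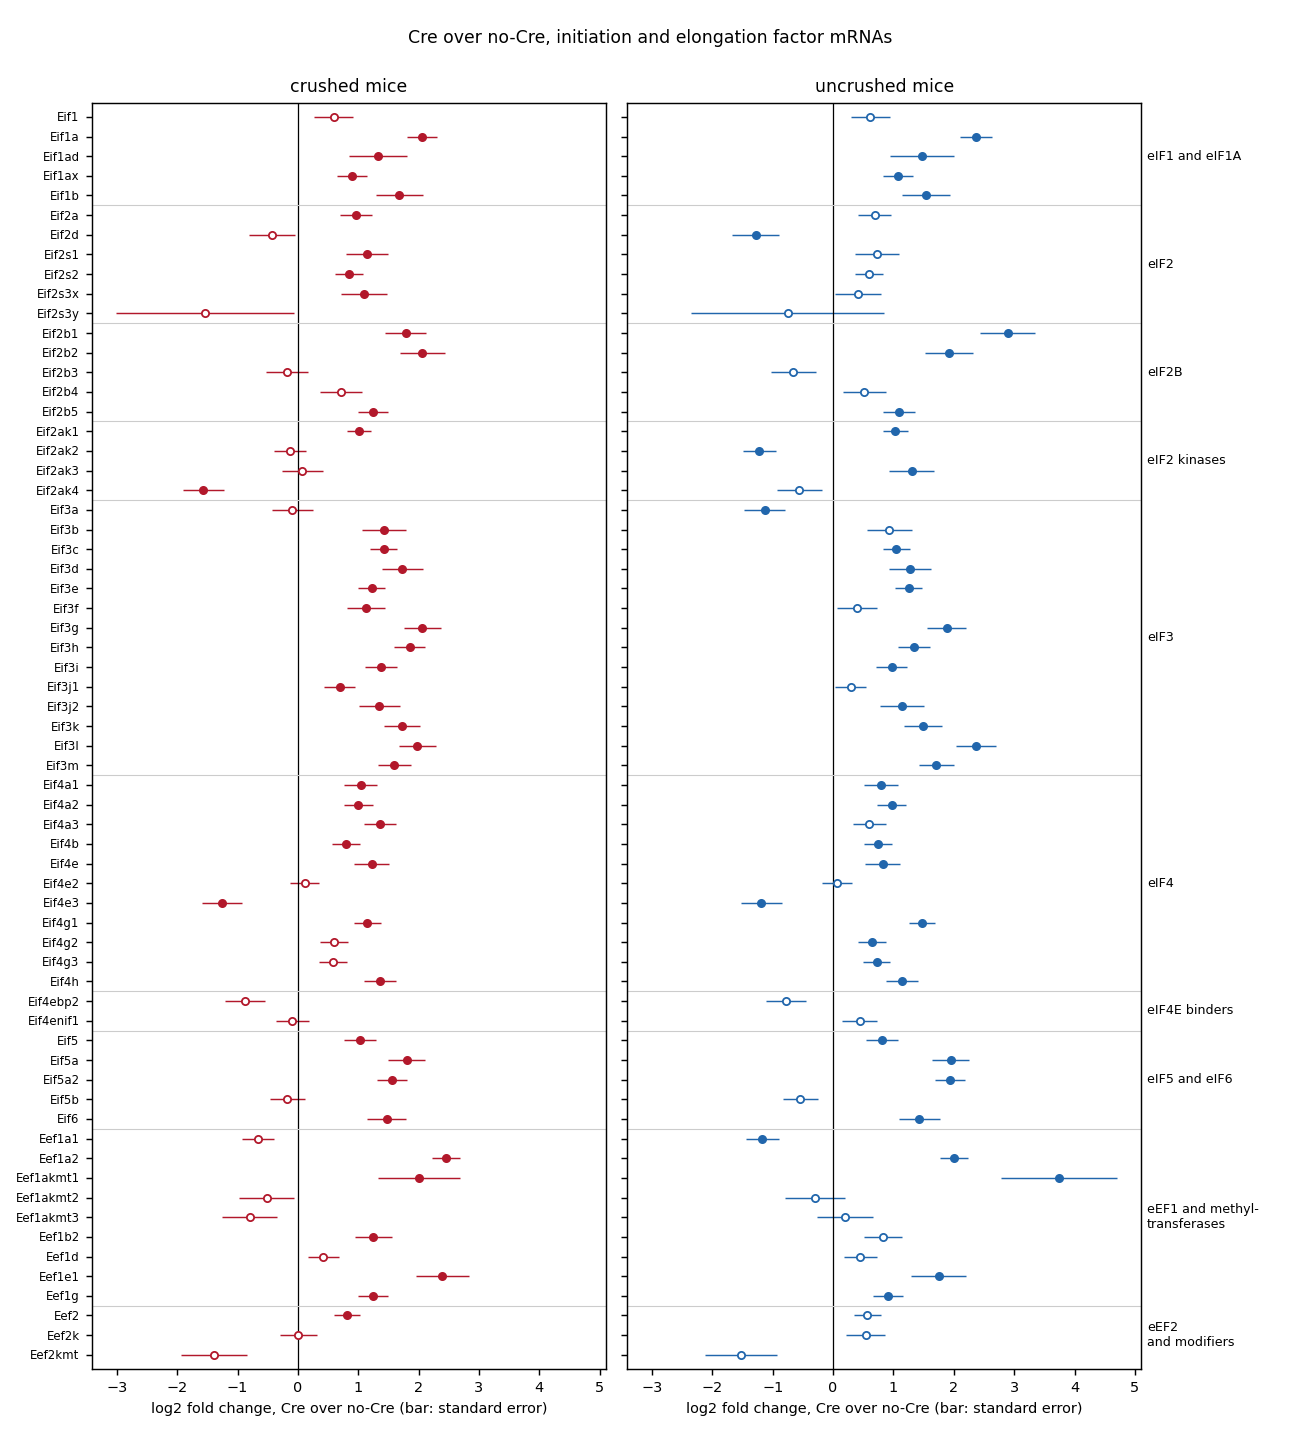
Log2 fold change, Cre over no-Cre, of the 64 tested members in crushed (left) and uncrushed (right) mice, ordered by role. Points are edgeR estimates and bars their standard errors (2 libraries a group). Filled points were called at an adjusted p of 0.05. Most eIF3 subunits lie right of 0 in both panels, whereas Eif4e3 lies left of it in both.

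Among the elongation factors, Eef1a2 was higher with Cre in both states. It had 153 and 158 CPM in Cre crushed libraries, against 31.3 and 25 CPM in no-Cre crushed libraries. In uncrushed mice it had 181 and 163 CPM with Cre, against 43.3 and 42.7 CPM without. All 4 Cre libraries lay above all 4 no-Cre libraries, as they did for 42 of the 67 members. For 6 members they lay below, and for 19 they overlapped. Such separation was not counted over all genes. The log2 fold change was 2.46 ± 0.23 in crushed mice (standard error; adjusted p = 6.95e-05) and 2.00 ± 0.23 in uncrushed mice (adjusted p = 0.000124), and both calls held under every alternative run.

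Eef1a1 stood the other way round. It had 198 and 186 CPM in Cre crushed libraries, against 226 and 379 CPM in no-Cre crushed libraries, and 150 and 153 CPM in Cre uncrushed libraries, against 357 and 324 CPM in no-Cre uncrushed libraries. Again all 4 Cre libraries lay apart from the no-Cre libraries, here below them. In uncrushed mice it was lower with Cre (log2 fold change -1.17 ± 0.27, adjusted p = 0.00539). In crushed mice the value of -0.66 ± 0.26 did not pass (adjusted p = 0.0643). The uncrushed call was lost with library-size scaling (-0.47, adjusted p = 0.248), without Cre uncrushed 3 (-1.15, adjusted p = 0.0505) and without both contradictory libraries (-1.07, adjusted p = 0.109). Eef1a1 has many processed pseudogenes, and the authors' counting divides reads among such copies, so its level is less certain than that of Eef1a2.

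A ratio of paralogs within a library needs no scaling between libraries. Per base of effective length, the ratio of Eef1a2 to Eef1a1 was 0.571 and 0.63 in Cre crushed libraries, against 0.103 and 0.0489 in no-Cre crushed libraries. It was 0.891 and 0.79 in Cre uncrushed libraries, against 0.09 and 0.0977 in no-Cre uncrushed libraries. Eef1a1 was thus still the more abundant mRNA per length in every library, but by less than 2-fold with Cre. The ratio was 8.7-fold higher with Cre (log2 difference 3.12), and no Cre library overlapped a no-Cre library. The exact two-sided permutation test of the 4 Cre against the 4 no-Cre libraries gave p = 0.0286, the smallest its 70 arrangements allow, and 0.0408 adjusted over the 10 paralog pairs tested. Without Cre crushed 35, Cre crushed 52 or Cre uncrushed 3 the adjusted exact p was 0.0571 for this pair, and 0.0571 or 0.0816 for the other 6 pairs below that separated. Permutation only within crushed and within uncrushed libraries cannot go below p = 0.0556, which each of these 7 pairs reached. Muscle is another tissue with Eef1a2, and the 6 muscle genes measured summed to 1.74 to 12.1 CPM in Cre crushed, against 58.8 to 238 CPM in no-Cre crushed libraries. In uncrushed mice their sums were 11.3 to 224 CPM with Cre, against 34.7 to 127 CPM without. The part of muscle mRNA in the Eef1a2 level was not tested.

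**Figure D2:**
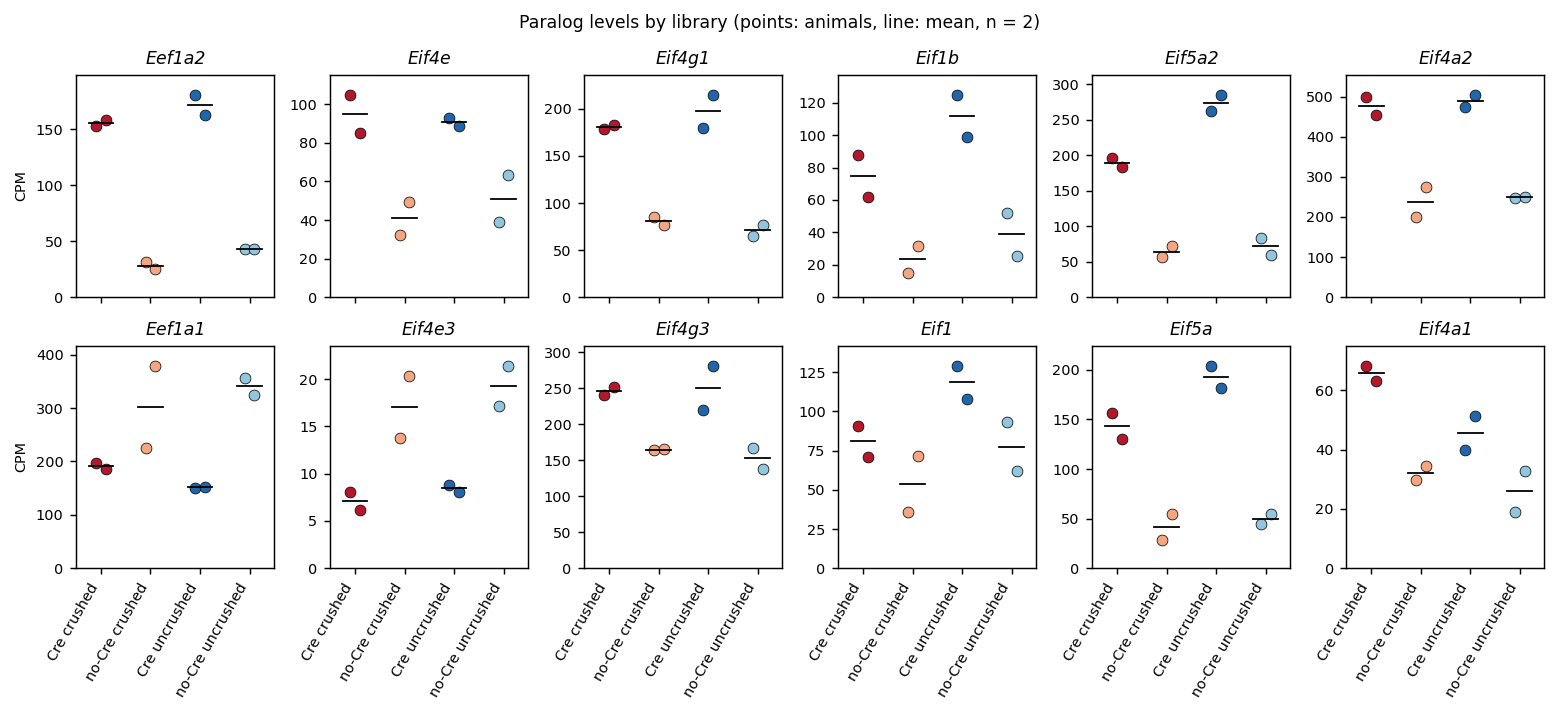
Levels of 6 paralog pairs in CPM, 1 pair a column, in the 4 groups. Each point is 1 library and the line is the mean of 2. Eef1a2 sits between 153 and 181 CPM with Cre, above all no-Cre libraries, while Eef1a1 and Eif4e3 sit below them.

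Of the 3 exchange factor subunits that recharge eEF1A, Eef1g was called in both states, Eef1b2 in crushed mice and Eef1d in neither. Eef1g was higher with Cre in both states, with 191 and 176 CPM in Cre crushed, against 60.3 and 94.1 CPM in no-Cre crushed libraries. Its uncrushed call (0.91 ± 0.25) was lost without Cre uncrushed 3 (adjusted p = 0.0759) and without both contradictory libraries (0.133). Eef1b2 had a log2 fold change of 1.25 ± 0.31 in crushed mice (adjusted p = 0.0086), a call lost without Cre crushed 35. In uncrushed mice it had 0.83 ± 0.32 (adjusted p = 0.0515). Eef1d, another subunit, had 0.42 and 0.45. Eef1e1, a scaffold protein of the tRNA synthetase complex despite its name, was low but higher with Cre, with 11.7 and 8.7 CPM in Cre crushed, against 2.04 and 1.83 CPM in no-Cre crushed libraries.

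Among the enzymes that methylate eEF1A, Eef1akmt1 was called higher in both states on few counts. It had 74 and 69 counts in Cre crushed, against 11 and 6 in no-Cre crushed libraries, and 27 and 58 in Cre uncrushed, against 2 and 0 in no-Cre uncrushed libraries. The crushed call was lost on leaving out any library of the crushed groups (adjusted p 0.0893 to 0.133), and the uncrushed call without Cre uncrushed 3 (adjusted p = 0.0509). Eef1akmt2 and Eef1akmt3 were called in neither state. Eef2 itself had 420 and 402 CPM in Cre crushed, against 242 and 228 CPM in no-Cre crushed libraries, and passed in crushed mice (0.81 ± 0.22, adjusted p = 0.014). That call was lost with library-size scaling (adjusted p = 0.0578), without Cre crushed 35 (0.103) and without Cre crushed 52 (0.0595). In uncrushed mice it had 0.57 ± 0.22 (adjusted p = 0.0581). Eef2k, the kinase that inhibits eEF2, and Eef2kmt, which methylates it, were called in neither state.

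Of the 14 members for the eIF3 complex, 13 were higher with Cre in crushed mice and 0 lower, and in uncrushed mice 10 were higher and 1 lower. The medians of their log2 fold changes were 1.42 and 1.19. Eif3l, a subunit outside the core of the complex, had 49.6 and 43.4 CPM in Cre crushed, against 8.82 and 14.8 CPM in no-Cre crushed libraries, and 38.9 and 35.6 CPM in Cre uncrushed, against 5.85 and 8.28 CPM in no-Cre uncrushed libraries. The groups lay far apart in both states, at log2 fold changes of 1.98 ± 0.30 (adjusted p = 0.000553) and 2.37 ± 0.33 (adjusted p = 0.00036). Eif3g, which binds RNA during scanning, had 2.06 ± 0.31 and 1.88 ± 0.33. Eif3h had 1.85 ± 0.26 and 1.34 ± 0.27, and Eif3c, a core subunit, 1.42 ± 0.22 and 1.05 ± 0.22. The uncrushed call of Eif3c was lost without both contradictory libraries (adjusted p = 0.0712). Eif3e, Eif3g, Eif3h, Eif3k, Eif3l and Eif3m kept their calls in both states under every alternative run.

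Eif3a, which encodes the largest subunit, was the member called lower in uncrushed mice. It had 247 and 258 CPM in Cre crushed, against 297 and 242 CPM in no-Cre crushed libraries. In uncrushed mice it had 305 and 357 CPM with Cre, against 1012 and 440 CPM without. The crushed groups overlapped, and the uncrushed groups did not, with 1 no-Cre library far above the rest. The uncrushed value was -1.13 ± 0.34 (adjusted p = 0.0212), and without no-Cre uncrushed 4 it was -0.37 (adjusted p = 0.313). The call was also lost with library-size scaling (-0.34), without either Cre uncrushed library (adjusted p 0.132 without 10 and 0.0832 without 3) and without both contradictory libraries (-0.48, adjusted p = 0.337). Eif3j1 and Eif3j2 are near-identical copies whose reads the authors' counting had to divide. The ratio of Eif3j2 to Eif3j1 per base ranged from 0.861 to 1.15 in Cre libraries and from 0.417 to 0.86 in no-Cre libraries, and their separate calls are uncertain.

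Of the 6 members for eIF2 and initiator tRNA delivery, 4 were higher with Cre in crushed mice, among them Eif2s1 and Eif2s2, the alpha and beta subunits. Eif2s1 had 44.9 and 40.9 CPM in Cre crushed, against 22.3 and 16.5 CPM in no-Cre crushed libraries (1.14 ± 0.35, adjusted p = 0.021). That call was lost with library-size scaling and without Cre crushed 35, Cre crushed 52 or no-Cre crushed 58 (adjusted p 0.0547 to 0.109). In uncrushed mice 0 of the 6 were higher and 1, Eif2d, was lower. Eif2d, which can deliver tRNA without eIF2, had 8.2 and 11.1 CPM in Cre uncrushed, against 33.1 and 14.7 CPM in no-Cre uncrushed libraries. Its value of -1.28 ± 0.39 (adjusted p = 0.0223) was -0.56 without no-Cre uncrushed 4 (adjusted p = 0.248), and the call was lost in 5 of 14 alternatives.

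The gamma subunit comes from an X-linked and a Y-linked gene, Eif2s3x and Eif2s3y. The stretches around their starts on GRCm38.p6, at chrX:94212622-94212721 (minus strand) and chrY:1010525-1010624 (plus strand), are shown because the libraries differ in these copies. Capitals mark AAGATGGC, the letters searched as the core of the YY1 motif. In both stretches they lie past the annotated start and contain ATG, the letters of a start codon. Whether translation starts there was not looked up.
Eif2s3x: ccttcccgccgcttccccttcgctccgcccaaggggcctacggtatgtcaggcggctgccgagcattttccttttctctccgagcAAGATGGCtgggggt
Eif2s3y: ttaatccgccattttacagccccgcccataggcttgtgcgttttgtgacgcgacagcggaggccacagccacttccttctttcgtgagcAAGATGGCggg

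Eif2s3y had 308 counts in Cre crushed 35 and 0 in Cre crushed 52, against 256 and 136 in no-Cre crushed 51 and 58. In uncrushed mice it had 0 counts in Cre 10 and 138 in Cre 3, against 2 and 80 in no-Cre 4 and 6. The Y-linked Ddx3y was likewise at 0 counts in Cre crushed 52 and Cre uncrushed 10, with 2 counts in no-Cre uncrushed 4. Xist, which is transcribed from an inactive X, was at 162, 81.1 and 1119 CPM in those 3 libraries and at no more than 5.34 CPM in the other 5. Sex is not among the labels, so the libraries were not regrouped. Eif2s3x had 100 and 196 CPM in Cre crushed, against 51.4 and 88 CPM in no-Cre crushed libraries, and its highest value in that comparison lay in Cre crushed 52. The call in crushed mice (1.09 ± 0.38, adjusted p = 0.0391) was lost without Cre crushed 52 (0.57, adjusted p = 0.314) and without no-Cre crushed 51 (0.78, adjusted p = 0.214). Any part of the sex of the mice in this call was not tested.

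**Figure D3:**
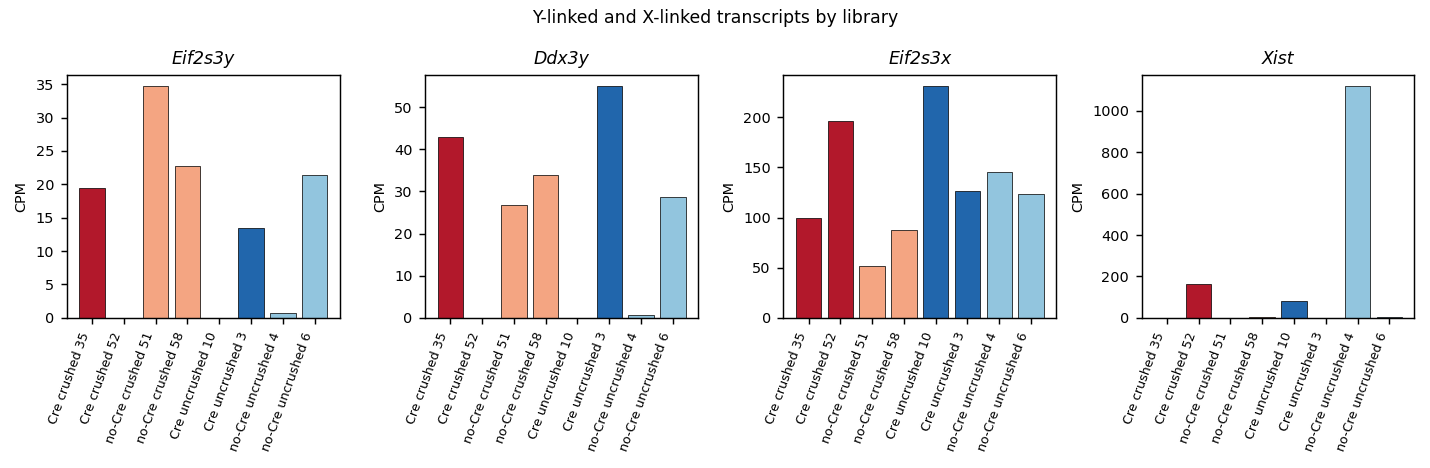
Levels in CPM of Eif2s3y, Ddx3y, Eif2s3x and Xist, 1 bar a library. Xist stands out in 3 libraries (Cre crushed 52, Cre uncrushed 10, no-Cre uncrushed 4), and these have at most 0.78 CPM of either Y-linked mRNA.

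Of the 5 eIF2B subunits, 3 were higher with Cre in each state (Eif2b1, Eif2b2 and Eif2b5) and 0 lower. Eif2b1, the alpha subunit, had 21.9 and 17.5 CPM in Cre crushed, against 6.51 and 4.83 CPM in no-Cre crushed libraries, and 9.63 and 11.8 CPM in Cre uncrushed, against 1.56 and 1.34 CPM in no-Cre uncrushed libraries. Its lowest Cre value thus exceeded its highest no-Cre value, and its log2 fold changes were 1.79 ± 0.34 (adjusted p = 0.00208) and 2.89 ± 0.45 (adjusted p = 0.000656), the second on only 4 and 5 counts in the no-Cre libraries. The uncrushed calls of Eif2b2 and Eif2b5 were lost without both contradictory libraries (adjusted p = 0.0614 and 0.0501). Eif2b3 and Eif2b4 were called in neither state.

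The 4 kinases that phosphorylate eIF2 did not move alike. Eif2ak1, the heme-regulated kinase HRI, had 74.4 and 77.7 CPM in Cre crushed, against 35.8 and 39.6 CPM in no-Cre crushed libraries, and was higher with Cre in both states (1.01 ± 0.20 and 1.03 ± 0.21). Eif2ak4, the amino acid sensor GCN2, had 6.65 and 6.17 CPM in Cre crushed, against 21.7 and 16.3 CPM in no-Cre crushed libraries. It was lower with Cre in crushed mice (-1.57 ± 0.34, adjusted p = 0.00426), a call lost without Cre crushed 35 (adjusted p = 0.0503), and had -0.56 ± 0.37 in uncrushed mice. Eif2ak2, the kinase PKR activated by double-stranded RNA, had 10.1 and 11.1 CPM in Cre uncrushed, against 21.8 and 27.5 CPM in no-Cre uncrushed libraries (-1.22 ± 0.27, adjusted p = 0.00461), a call lost with library-size scaling (-0.55, adjusted p = 0.32). In crushed mice it had -0.13 ± 0.26. Eif2ak3, the endoplasmic reticulum kinase PERK, had 11.8 and 17.3 CPM in Cre uncrushed, against 6.63 and 5.34 CPM in no-Cre uncrushed libraries (1.30 ± 0.38, adjusted p = 0.0184), and 0.07 ± 0.34 in crushed mice. Its uncrushed call was lost in 4 of 14 alternatives, at log2 values of 1.03 to 1.21.

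Within eIF4, Eif4e and the scaffold Eif4g1 were higher with Cre and Eif4e3 lower. Eif4e, the main cap-binding protein, had 105 and 85 CPM in Cre crushed, against 32.3 and 49.3 CPM in no-Cre crushed libraries, and 92.9 and 88.9 CPM in Cre uncrushed, against 39 and 63.3 CPM in no-Cre uncrushed libraries. The values were 1.22 ± 0.29 (adjusted p = 0.00604), lost without Cre crushed 35 (adjusted p = 0.055), and 0.82 ± 0.29 (adjusted p = 0.039), lost in 5 of 14 alternatives. Eif4e3, a divergent cap-binding relative, had 8.04 and 6.17 CPM in Cre crushed, against 13.8 and 20.3 CPM in no-Cre crushed libraries, and 8.85 and 8.08 CPM in Cre uncrushed, against 17.2 and 21.4 CPM in no-Cre uncrushed libraries. Every Cre library lay below every no-Cre library, as for 6 members in all. Its log2 fold changes were -1.26 ± 0.33 (adjusted p = 0.0103) and -1.19 ± 0.34 (adjusted p = 0.0153). The crushed call was lost in 4 of 14 alternatives and the uncrushed call in 5, library-size scaling among them each time (-1.05 and -0.53). Eif4e2, which represses some capped mRNAs, was called in neither state (0.11 ± 0.24 and 0.07 ± 0.25).

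The ratios to Eif4e within each library show the same contrast free of scaling. The ratio of Eif4e3 to Eif4e per base was 0.0885 and 0.0845 in Cre crushed, against 0.496 and 0.478 in no-Cre crushed libraries, and 0.111 and 0.106 in Cre uncrushed, against 0.508 and 0.39 in no-Cre uncrushed libraries (log2 difference -2.27). The ratio of Eif4e2 to Eif4e ran from 0.341 to 0.457 with Cre, against 0.478 to 1.01 without (-0.97). Eif4e was thus the most abundant of these 3 cap-binding mRNAs per length in 7 of the 8 libraries, the exception being no-Cre uncrushed 4, where Eif4e2 stood at 1.01 times Eif4e. Both pairs gave p = 0.0286 in the exact permutation test, 0.0408 adjusted over the 10 pairs. Without Cre uncrushed 10 the adjusted exact p for Eif4e2 was 0.0816.

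Of the 3 scaffold genes Eif4g1 was called in both states. It had 179 and 183 CPM in Cre crushed, against 85.4 and 77.1 CPM in no-Cre crushed libraries, and kept its call as higher in both states under every alternative run (1.15 ± 0.22 and 1.47 ± 0.22). Eif4g3, its close relative, and Eif4g2, which lacks the binding site for eIF4E, were called in uncrushed mice at 0.72 ± 0.23 and 0.64 ± 0.23 and not in crushed mice (0.58 ± 0.23 and 0.60 ± 0.23). The uncrushed calls were lost in 4 of 14 alternatives for Eif4g3 and in 7 for Eif4g2. The ratio of Eif4g2 to Eif4g1 was 2.03 to 2.42 in Cre libraries, against 2.96 to 3.99 in no-Cre libraries (log2 difference -0.69). That of Eif4g3 to Eif4g1 was 0.81 to 0.916, against 1.19 to 1.7 (-0.67). Neither pair's groups overlapped (exact permutation p = 0.0286, adjusted p = 0.0408).

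The helicases gave a counterexample. Eif4a2 had the highest level per length of all 67 members in both Cre groups, at 293 CPM per kilobase in Cre crushed and 301 in Cre uncrushed libraries, and was second to Eef1a1 in both no-Cre groups, at 146 and 153. It and Eif4a1 were both higher with Cre, at 1.00 ± 0.24 and 1.04 ± 0.27 in crushed mice. Those calls were lost without Cre crushed 35 (adjusted p 0.0655 and 0.074), and that of Eif4a1 also without no-Cre crushed 51 (adjusted p = 0.0595). The ratio of Eif4a2 to Eif4a1 ran from 5 to 8.26 with Cre, against 4.68 to 8.95 without. These ranges overlapped, and the log2 difference of 0.06 did not pass (exact permutation p = 0.886, adjusted p = 0.886).

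Of the 4 eIF4E binders only Eif4ebp2 and Eif4enif1 had enough counts to test. Eif4ebp1 had 2 to 20 counts and Eif4ebp3 0 to 6 counts a library, and both missed the filter, as did Eif4e1b, a germline cap-binding form, with 0 or 1 counts. Eif4ebp2, the main eIF4E repressor of brain, had 13.3 and 14.3 CPM in Cre crushed, against 18.6 and 32.2 CPM in no-Cre crushed libraries, and 32 and 23.7 CPM in Cre uncrushed, against 58.9 and 36.9 CPM in no-Cre uncrushed libraries. The groups did not overlap in either state, but the values of -0.87 ± 0.33 (adjusted p = 0.0501) and -0.78 ± 0.33 (adjusted p = 0.0756) did not pass. Eif4enif1, the eIF4E transporter, was called in neither state. The ratio of Eif4ebp2 to Eif4ebp1 overlapped between groups (log2 difference -0.94, exact permutation p = 0.2, adjusted p = 0.25).

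**Figure D4:**
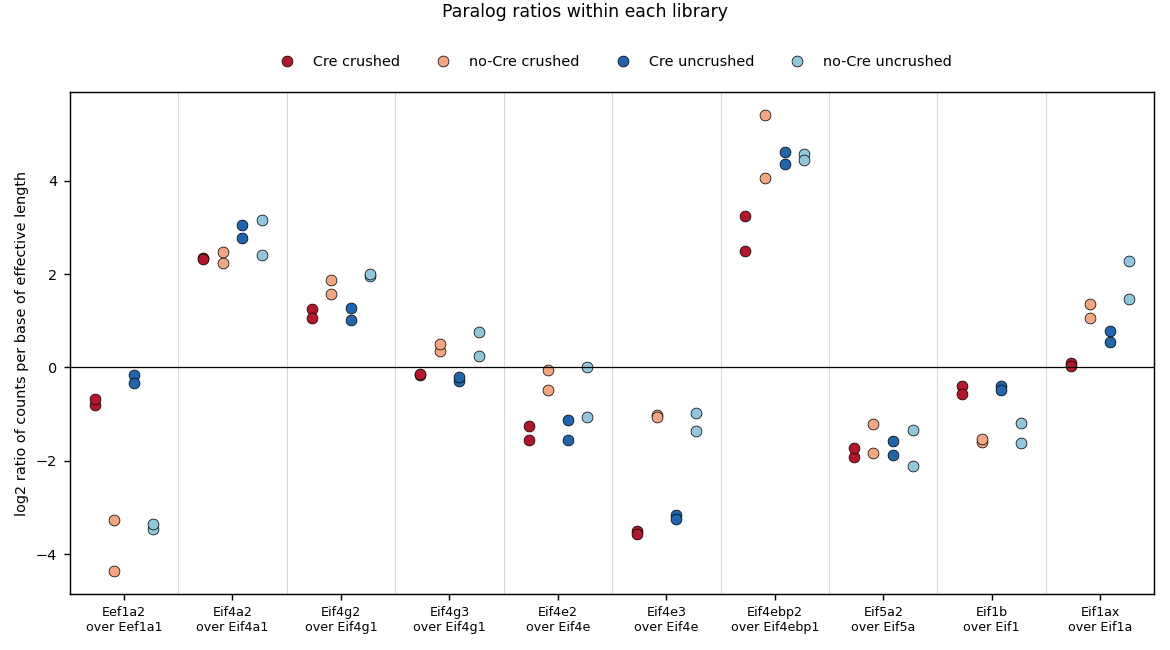
Log2 ratio of counts per base of effective length for the 10 paralog pairs, 1 point a library. Cre and no-Cre points separate in 7 pairs, most widely for Eef1a2 over Eef1a1, and overlap for Eif4a2 over Eif4a1, Eif5a2 over Eif5a and Eif4ebp2 over Eif4ebp1. Ratios of unrelated genes were not computed.

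Start codon factors and their paralogs also shifted. Eif1a, an autosomal eIF1A gene, had 66.7 and 64.2 CPM in Cre crushed, against 16.6 and 15 CPM in no-Cre crushed libraries, and 40.3 and 54 CPM in Cre uncrushed, against 9.75 and 8.55 CPM in no-Cre uncrushed libraries. No Cre value came near a no-Cre value, and the log2 fold changes were 2.05 ± 0.25 (adjusted p = 0.000185) and 2.37 ± 0.27 (adjusted p = 0.000131). Its X-linked relative Eif1ax rose less, at 0.90 ± 0.25 and 1.08 ± 0.25. The ratio of Eif1ax to Eif1a was 1.02 to 1.73 with Cre, against 2.07 to 4.9 without (log2 difference -1.18). The authors' counting divides reads that similar genes share, and its effect on the levels of Eif1a and Eif1ax was not tested. Eif1b was higher with Cre (1.68 ± 0.39 and 1.54 ± 0.39), whereas Eif1, the main start codon gatekeeper, had 0.59 ± 0.32 and 0.62 ± 0.33 and was not called. The ratio of Eif1b to Eif1 was 0.679 to 0.759 with Cre, against 0.326 to 0.437 without (log2 difference 1.03). Both ratios separated all Cre from all no-Cre libraries (exact permutation p = 0.0286, adjusted p = 0.0408), though without no-Cre uncrushed 6 that of Eif1ax gave an adjusted exact p of 0.0816.

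The uncrushed call of Eif1b was lost without no-Cre uncrushed 6 (adjusted p = 0.06). That of Eif1ax was lost without both contradictory libraries (adjusted p = 0.127), and its crushed call without Cre crushed 35 (0.0932) or no-Cre crushed 51 (0.0605). Eif1ad, an eIF1A-like protein, was also called higher in both states, and lost those calls in 5 and 6 of 14 alternatives.

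Of eIF5, eIF5A, eIF5B and eIF6, 4 of 5 genes were higher with Cre in each state and 0 lower. Eif5a, whose protein carries the hypusine modification and relieves stalled ribosomes, had 157 and 130 CPM in Cre crushed, against 28.1 and 54.5 CPM in no-Cre crushed libraries. Its paralog Eif5a2 had 196 and 183 CPM in Cre crushed, against 56.7 and 71.6 CPM in no-Cre crushed libraries. Both kept their calls in both states under every alternative run, Eif5a at 1.80 ± 0.30 and 1.95 ± 0.31 and Eif5a2 at 1.56 ± 0.25 and 1.94 ± 0.25. Their ratio, Eif5a2 over Eif5a per base, was 0.265 to 0.334 with Cre, against 0.23 to 0.43 without. The ranges overlapped (log2 difference -0.15, exact permutation p = 0.514, adjusted p = 0.571). Eif5b, the subunit joining factor, was called in neither state.

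Some of these mRNAs begin with an oligopyrimidine tract (TOP), through which mTOR and LARP1 control their translation. Of 9 members known for it, 7 were higher with Cre in crushed mice and 0 lower, and in uncrushed mice 4 were higher and 1, Eef1a1, lower. Their median log2 fold changes were 1.13 and 0.75, beside 1.06 and 0.82 over all tested members.

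Promoter windows of 300 bases, 250 before and 50 from the annotated start, were found by symbol in RefSeq for 51 of the 67 members. CCGGAAGT, a core of the motif of ETS factors, was read on both strands. It occurred in 9 of the 51 windows (17.6%), against 995 of 17491 windows of all protein-coding genes (5.7%). AAGATGGC occurred in 6 (11.8%, against 3.6%), TATAAA in 5 (9.8%, against 14.8%), CCAAT in 16 (31.4%, against 42.3%) and TGACGTCA in 1 (2.0%, against 2.5%), and no motif's letters are contained in another. Of the 24 members with a window that were called higher with Cre in both states, 6 held the ETS core, beside 9 of all 51. Its share among all genes called higher in both states was not counted, and a link between motif and call was not tested. The stretches of 2 of these 6 members on the plus strand of GRCm38.p6, at chr15:79075153-79075252 and chr3:28781207-28781306, show the ETS core in capitals.
Eif3l: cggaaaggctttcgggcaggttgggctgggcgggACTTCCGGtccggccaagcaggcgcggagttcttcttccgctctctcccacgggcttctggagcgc
Eif5a2: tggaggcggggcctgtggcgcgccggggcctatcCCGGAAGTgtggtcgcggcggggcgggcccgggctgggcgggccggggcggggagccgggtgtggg
In Eif3l the letters stand as their reverse complement. A match is a description of the letters and not a measured site.

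Longer members tended to lower values. Over the 64 tested members the log2 fold change and the effective length had Pearson r = -0.27 and Spearman rho = -0.36 in crushed mice, and -0.26 and -0.27 in uncrushed mice. Over all 13619 protein-coding genes tested these were -0.22 and -0.25 in crushed, and -0.17 and -0.2 in uncrushed mice. These are correlations across genes of the same libraries, and the genes are not independent replicates.

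Of 50 other translation genes on a separate list (poly(A)-binding proteins, release factors, mTOR pathway and modifying enzymes), 17 were higher and 3 lower with Cre in crushed mice, beside 21.6% and 21.3% of all genes, with a median log2 fold change of 0.55. In uncrushed mice 16 were higher and 4 lower, beside 20.6% and 21.9% of all genes, with a median of 0.62. The difference between this list and the factors was not tested. Dohh, which completes hypusine on eIF5A, had 2.36 ± 0.34 and 2.43 ± 0.35. Mcts1, which acts in ribosome recycling, had 2.03 ± 0.29 and 3.27 ± 0.34, and the helicase Ddx3x 1.63 ± 0.23 and 1.32 ± 0.23. Rheb, the activator of mTOR, had 1.65 ± 0.24 and 1.32 ± 0.25, and Larp1 1.31 ± 0.22 and 1.44 ± 0.22. Cyfip1, an eIF4E-binding partner of FMRP, was lower at -1.38 ± 0.24 and -1.36 ± 0.25, and Dph5, an enzyme of the diphthamide modification of eEF2, at -1.22 ± 0.26 and -1.06 ± 0.26. Pabpc1, the main cytoplasmic poly(A)-binding protein, was lower in crushed mice at -0.91 ± 0.22 (adjusted p = 0.00652) and had -0.38 ± 0.22 in uncrushed mice (adjusted p = 0.175).

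For nerve crush, in Cre libraries 0 of 64 members were called by edgeR with the filter and TMM scaling, beside 0.0395% (higher) and 0.0329% (lower) of all genes. An unadjusted p under 0.05 was found for 8 of the 64 members, beside 1421 of all 15208 genes tested. DESeq2 also called 0 members. The median log2 fold change, crushed over uncrushed, was 0.01 over the members and 0.03 over all genes. Age and a number shared by the titles of the uncrushed libraries cannot be told apart from crush in this design.

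The smallest p was that of Eif2ak2. It had 20.3 and 19.5 CPM in Cre crushed, against 10.1 and 11.1 CPM in Cre uncrushed libraries. Without Cre it had 21.8 and 21.7 CPM in crushed, against 21.8 and 27.5 CPM in uncrushed libraries. With Cre the groups stood apart, as they did for many members. In Cre libraries crushed lay above uncrushed for 18 members and below for 16, with overlap for 33. Separation was not counted over all genes, so these counts have no background beside them. The value of Eif2ak2, 0.90 ± 0.26, had an unadjusted p of 0.0051 and an adjusted p of 0.28. The difference of its crush effects with and without Cre was 1.09 ± 0.37 (adjusted p = 0.82). The 10 microglia and macrophage markers summed to 31.8 to 34.3 CPM in Cre crushed, against 21.4 to 23.9 CPM in Cre uncrushed libraries, and the oligodendrocyte markers to 1168 to 1933 CPM, against 749 to 926 CPM. Their part in the level of Eif2ak2 was not tested.

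Eif4ebp2 had the smallest p among members lower after crush. Its log2 value was -1.01 ± 0.33 in Cre libraries (13.3 and 14.3 CPM crushed, against 32 and 23.7 CPM uncrushed, adjusted p = 0.35) and -0.89 ± 0.38 in no-Cre libraries (18.6 and 32.2 CPM crushed, against 58.9 and 36.9 CPM uncrushed, adjusted p = 0.65). Both pairs of groups stood apart, which many members did in each comparison. With Cre, crushed lay above uncrushed for 18 members and below for 16, with overlap for 33. Without Cre these counts were 11, 12 and 44. No share over all genes stands beside these counts either. Eif2b1 had 0.88 ± 0.32 with Cre (adjusted p = 0.43) and 2.00 ± 0.77 without (adjusted p = 0.65), and Eif4h, a cofactor of the helicase, -0.63 ± 0.26 (adjusted p = 0.48) and -0.83 ± 0.33 (adjusted p = 0.65). None of these values passed. The compared groups share no library, but the fit for Cre libraries took its spread from all 8 libraries. In both comparisons age and the number shared by the uncrushed titles go with crush. The Eef1a2 to Eef1a1 ratio changed with crush by -0.48 with Cre and -0.40 without, on the log2 scale, against 3.12 between Cre and no-Cre.

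In no-Cre libraries 0 of 63 members were called with the filter and TMM scaling, beside 0% (higher) and 0.0149% (lower) of the 13394 genes tested. An unadjusted p under 0.05 was found for 6 of the 63 members, beside 1023 of the 13394 genes. Eif3a had the smallest p, with 297 and 242 CPM in no-Cre crushed, against 1012 and 440 CPM in no-Cre uncrushed libraries (-1.40 ± 0.40, unadjusted p = 0.0043, adjusted p = 0.56). DESeq2 called it (adjusted p = 0.0491), as did edgeR with no filter on low counts (adjusted p = 0.0211), and without no-Cre uncrushed 4 its value was -0.68 (adjusted p = 0.726). The test of the difference between the crush effects called 0 of 64 members by edgeR and by DESeq2. Over all genes edgeR called 0% in either direction, and DESeq2 called 9 higher and 6 lower. With edgeR 2 members had an unadjusted p under 0.05, beside 905 of all 15208 genes. These 2 members were Eif2ak2 and Eif2ak3, the second at -1.23 ± 0.51 (adjusted p = 0.83).

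**Figure D5:**
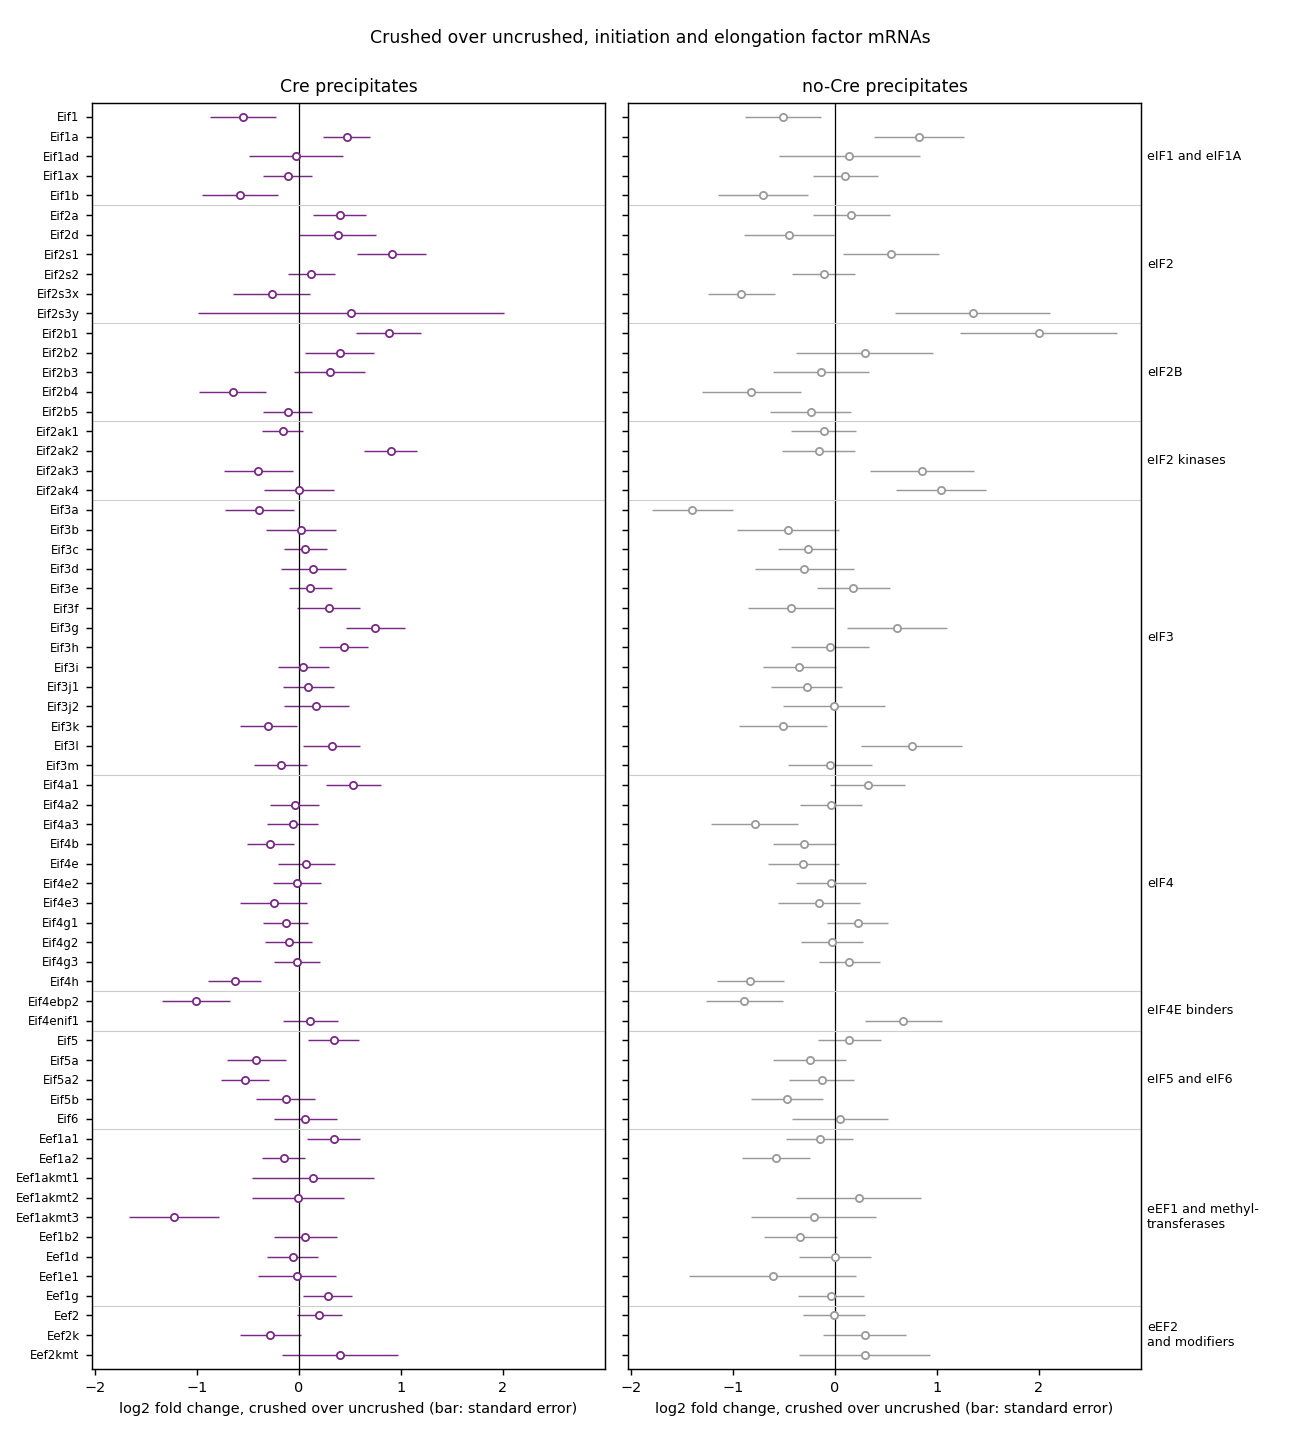
Log2 fold change, crushed over uncrushed, of the tested members in Cre (left, 64 members) and no-Cre (right, 63 members) precipitates, ordered by role. Points are edgeR estimates and bars their standard errors. All points are open, since none was called at an adjusted p of 0.05 in these fits.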

How the data were processed

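Per the submitters' processing notes, the authors used Bowtie2 2.2.0 and RSEM 1.2.12. Genome build, annotation and strand setting were not given in those sources. The deposited expected counts are what RSEM estimates for each gene, with no scaling for depth or length and with reads of similar genes divided among them. They were rounded. The deposited column of effective lengths (bases, a unit of type other) served the ratios and levels per length. GENCODE M21 symbols matched 37607 of 38924 Ensembl identifiers (96.6%). Eef1akmt4 was not analysed here.

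Groups follow the titles, with 2 libraries each. The number in a title was taken as the mouse, which no label states, so p-values measure the spread between these libraries. Within edgeR 4.0.16 (R 4.3.3), filterByExpr (minimum count 10, minimum total 15) kept 15208 genes, and a quasi-likelihood model with 1 mean a group and TMM scaling used all 8 libraries, leaving 4 residual degrees of freedom. Crush without Cre was fitted on the 4 no-Cre libraries alone (13394 genes), since the biological coefficient of variation was 0.322 among these and 0.202 among Cre libraries. Tests were two-sided. Values after ± are approximate standard errors. Paralog ratios had 0.5 added to each count. At these totals 3 counts correspond to 0.19 to 1.17 CPM, which covers counting error only.

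The members and lists were chosen with earlier results of these data known. The rule for named genes allowed every member, gave values by library to members of pairs and to up to 10 members with the smallest p per direction and comparison, and named up to 6 other translation genes per direction. Alternatives were DESeq2 1.42.0, its size factors, library-size scaling, no filter, other sets of fitted libraries, and leaving out libraries. The scripts were tested on simulated data.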

Additional observations from a re-analysis of the deposited data

How the results depend on the processing

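No direction of a called result reversed under any alternative. With DESeq2, 4 members were lower with Cre in crushed mice and 1 lower after crush without Cre. With library-size scaling, 1 was lower with Cre in crushed and 0 in uncrushed mice. With no filter, 1 was lower after crush without Cre. Without both contradictory libraries, 18 were higher (17 of them among the 35) and 1 lower in uncrushed mice. Leaving out each library in turn gave 26 to 45 higher and 1 to 4 lower in crushed mice, 22 to 40 higher and 1 to 6 lower in uncrushed mice, and 0 or 1 higher after crush without Cre (Eif2s3y without no-Cre uncrushed 6). Under every alternative run, 24 of the 42 calls of higher members in crushed mice and 14 of the 35 in uncrushed mice held, and 0 of the 2 and 0 of the 5 calls of lower members.

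For the paralog ratios, an exact permutation only within crush states gave p = 0.0556 (adjusted p = 0.0794), the smallest possible, for the 7 separated pairs, at the same log2 differences of 3.12, -0.69, -0.67, -0.97, -2.27, 1.03 and -1.18. Without both contradictory libraries these were 3.12, -0.61, -0.57, -0.92, -2.27, 1.13 and -1.26, with exact permutation p = 0.1 and adjusted p = 0.143. Leaving out each library in turn, they ran from 2.88 to 3.23 (Eef1a2 over Eef1a1), -0.79 to -0.64 (Eif4g2 over Eif4g1), -0.74 to -0.57 (Eif4g3 over Eif4g1), -1.2 to -0.84 (Eif4e2 over Eif4e), -2.35 to -2.2 (Eif4e3 over Eif4e), 0.98 to 1.12 (Eif1b over Eif1) and -1.34 to -0.93 (Eif1ax over Eif1a).

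Over all genes, crush with Cre gave 6 higher and 5 lower calls, against 90 and 47 with DESeq2, 188 and 93 with no filter and 49 and 77 with the Cre libraries alone. Crush without Cre gave 0 and 2, against 8 and 43 with DESeq2, 31 and 90 with no filter, and 90 and 6 with library-size scaling, which moved the median of all genes to 0.93 from -0.01 (with Cre to 0.47 from 0.03). Leaving out a library gave 4 to 35 and 25 to 93 without Cre. The difference of crush effects gave 0 and 0, against 9 and 6 with DESeq2 and 49 and 38 with no filter.

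No paired analysis was possible because no number occurs in more than 1 group. Depth limits Eif4e1b, Eif4ebp1, Eif4ebp3, Eef1akmt1 and, without Cre, Eif2b1.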
